A study of Saccharomyces cerevisiae with 12 samples.

Results

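The genes described here make amino acids other than arginine in the yeast Saccharomyces cerevisiae. They were chosen by name: 42 standard names were matched to the systematic identifiers of the count table through the R64 gene table, and all 42 were found among its 6219 genes. They comprise the activator GCN4, 6 histidine genes, 8 lysine genes, 9 genes of isoleucine, valine and leucine synthesis (the branched-chain branch), 9 genes of tryptophan, phenylalanine and tyrosine synthesis (the aromatic branch), 3 serine genes, and 6 others for the aspartate family, glutamine and asparagine. RNA was sequenced from log-phase cultures of 4 haploid strains with 3 libraries each: MATalpha carrying the tup1(S649F) point mutation (DY19306), WT MATalpha (DY3420), MATa carrying tup1(S649F) (DY19304) and WT MATa (DY150). The study asked how Tup1, best known as a corepressor, acts on transcription. All 4 strains, the WT ones included, are of the W303 background and share the alleles his3-11,15, trp1-1 and leu2-3,112, which block the synthesis of histidine, tryptophan and leucine, beside ade2-1, ura3-1 and can1-100. Cultures grew at 30 °C on a rich medium of yeast extract and peptone with adenine and 2% dextrose and were taken in log phase at an OD660 between 0.6 and 0.8; the medium supplied amino acids. Each group is a single strain, and nothing in the labels ties the 3 libraries of a strain to separate cultures; p-values therefore measure the spread among these libraries. The mutation changes an amino acid of Tup1, so the level of the TUP1 transcript does not check the labels.

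Amino acid synthesis in yeast is under a general control. When cells lack an amino acid, the kinase Gcn2 slows translation as a whole, upstream open reading frames let the GCN4 messenger be translated more, and the Gcn4 protein activates genes of many pathways through sites with the core TGACTC. Since this control acts on translation, the GCN4 transcript does not report the amount of Gcn4 protein. Branches also have activators of their own: Leu3 serves leucine and branched-chain genes and responds to alpha-isopropylmalate, and Lys14 serves lysine genes and responds to alpha-aminoadipate semialdehyde, both intermediates of the pathway they control. Tup1 acts with Cyc8 and reaches promoters through proteins that bind DNA.

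The 500 bases before each start codon were searched on both strands for TGACTC, for a Leu3 motif (CCGG and CCGG with 2 bases of any kind between them), for TCCNNNGGA (a Lys14 core) and for GATAAG, which GATA-type factors bind. TGACTC was present before 29 of 42 members (69%), against 717 of 5528 genes tested that have a full window (13%). The Leu3 motif was present before 4 members, all in the branched-chain branch, against 16 of 5528 genes (0.289%). TCCNNNGGA was present before 5 of 8 lysine genes, against 6.13% of all windows, and GATAAG before 13 members (31%), against 22.4%. A match describes the letters only. Below are 80 bases from the R64 reference (RefSeq), 5′ to 3′ on the strand of the gene, for 6 members that show the range of responses: HIS4, HIS5, LYS1, ARO4 and HOM3, which rose in tup1 MATalpha, and GLN1, which fell. Capitals mark TGACTC or its complement GAGTCA.
HIS4 (chrIII:68519-68598, minus strand): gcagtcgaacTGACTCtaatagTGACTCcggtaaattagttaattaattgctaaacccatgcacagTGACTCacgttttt
HIS5 (chrIX:142558-142637, plus strand): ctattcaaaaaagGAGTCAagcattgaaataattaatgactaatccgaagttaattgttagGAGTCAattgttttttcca
LYS1 (chrIX:420943-421022, minus strand): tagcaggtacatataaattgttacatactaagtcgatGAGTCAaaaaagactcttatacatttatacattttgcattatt
ARO4 (chrII:718264-718343, minus strand): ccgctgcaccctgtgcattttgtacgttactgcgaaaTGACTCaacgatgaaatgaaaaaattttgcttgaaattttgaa
HOM3 (chrV:258199-258278, minus strand): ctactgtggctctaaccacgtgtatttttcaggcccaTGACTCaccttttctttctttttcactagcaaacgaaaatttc
GLN1 (chrXVI:641903-641982, plus strand): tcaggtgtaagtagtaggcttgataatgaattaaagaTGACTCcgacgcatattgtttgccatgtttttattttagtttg
The HIS4 stretch holds 3 cores, the HIS5 stretch 2 and the other 4 stretches 1 each; none overlaps an annotated coding sequence. No TGACTC was found in the 500 bases before 13 members. Of these 13, 9 also rose in tup1 MATalpha (GCN4, LYS9, LYS20, LYS21, TRP5, ARO3, TYR1, SER3 and HOM6) and 1 fell (ARO2). Over all genes tested without TGACTC, 31.3% rose and 32.4% fell there. The members with the Leu3 motif were LEU1, BAT1, ILV2 and ILV5, shown here as 60 bases each because they responded differently from most members in MATalpha. Capitals mark that motif and, in BAT1, also TGACTC. The 500 bases also held 1 TGACTC for LEU1 and 3 for ILV5, outside the stretches shown, and 0 for ILV2.
LEU1 (chrVII:478835-478894, minus strand): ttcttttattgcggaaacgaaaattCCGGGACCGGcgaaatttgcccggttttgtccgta
BAT1 (chrVIII:517360-517419, plus strand): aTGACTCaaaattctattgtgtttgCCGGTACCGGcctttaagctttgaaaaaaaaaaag
ILV2 (chrXIII:483591-483650, plus strand): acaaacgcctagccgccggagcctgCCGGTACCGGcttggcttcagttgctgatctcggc
ILV5 (chrXII:839596-839655, minus strand): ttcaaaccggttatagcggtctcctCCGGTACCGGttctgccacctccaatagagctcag

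Library totals ran from 5657714 to 9300353 counts, and the lowest count of any member in any library was 106, for HIS6. All 42 members passed the filter on low counts. Values are given as CPM, the counts of a library scaled to a common total after TMM normalization. Tests are edgeR quasi-likelihood tests in a fit of all 12 libraries and 5654 genes, with Benjamini-Hochberg adjustment over all of these genes; a gene was called at an adjusted p under 0.05. The mating type markers were summed as a check of the labels. The 5 MATa markers (STE2, STE6, BAR1, MFA1 and MFA2) summed to 1638 to 2409 CPM in tup1 MATalpha and 24.8 to 25.8 CPM in WT MATalpha, and to 1688 to 1849 CPM in tup1 MATa and 1775 to 1833 CPM in WT MATa. The 4 MATalpha markers (STE3, SAG1, MF(ALPHA)1 and MF(ALPHA)2) summed to 7113 to 10634 CPM in tup1 MATalpha and 2660.0 to 2927 CPM in WT MATalpha, and to 48.0 to 52.5 CPM in tup1 MATa and 42.1 to 47.6 CPM in WT MATa; none of the 9 was at 0 throughout a group. The WT libraries thus carried the markers of their labelled mating type, and tup1 MATalpha carried both sets. This move of the mating type markers in tup1 MATalpha accompanies every result on that strain below, and its part in those results was not tested. Replicate 1 of tup1 MATa stood apart from its group, with a chi-square per degree of freedom of 21.0 and 28.3 against replicates 2 and 3, which differed from each other by 4.08. Pairs of tup1 MATalpha libraries were at 12.2, 8.26 and 7.4, and pairs within the WT groups ran from 1.4 to 2.68. The fit of all 12 libraries shares 1 estimate of the spread across groups, so its tests between the WT groups also use the spread of the mutant libraries.

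Most of these genes were higher in tup1 MATalpha than in WT MATalpha. Of 42 members 27 rose and 5 fell; over all genes tested, 32% were called higher and 31% lower (63.1% in all). The median log2 fold change of the members was 0.33, against −0.03 over all genes. HIS5 rose most, followed by SER3, LYS1, HIS4, LEU4 and LYS2, the 6 members that rose at least 2-fold; 12.9% of all genes did so. The 5 that fell were LEU1, GLN1, HIS6, LEU9 and ARO2, and the 10 that were not called were HIS2, LYS4, LYS12, LYS14, ILV2, ILV5, BAT1, TRP3, SER33 and ASN1. Since these are bulk cultures, fewer cells with a transcript and less transcript per cell cannot be told apart. The libraries of mutant and WT did not overlap for 28 members that were higher in the mutant (34% of all genes) and 5 that were lower (34.4%; 68.5% either way).

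Leaving out 1 library ended the MATalpha calls of 6 genes (libraries 1, 2 and 3 are the replicate numbers of the labels). HIS1 and ILV3 each dropped out when any 1 of the 6 WT libraries, or library 1 or 3 of tup1 MATalpha, was removed (adjusted p up to 0.176 for HIS1 and 0.141 for ILV3). LEU9 dropped out on removal of any MATalpha library (up to 0.0906), ASN2 on removal of library 2 of tup1 MATalpha or library 1 or 3 of WT MATalpha (up to 0.125), ARO2 on removal of library 1 of tup1 MATalpha (0.0628) or library 3 of WT MATalpha (0.055), and HIS6 on removal of library 1 of tup1 MATalpha (0.0612). LYS12 passed on removal of library 2 of tup1 MATalpha or library 1 or 3 of tup1 MATa (down to 0.0219) and with RLE scaling (0.0418). Upper-quartile scaling called 1480 of all genes higher and 2470 lower, against 1810 and 1755 with TMM; of the members it called 21 higher and 8 lower. It added HIS2, LYS14 and SER33 to the genes called lower (adjusted p of 0.0495, 0.0264 and 0.0388).

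Most of them were lower in tup1 MATa than in WT MATa. Of 42 members 24 fell and 8 rose; over all genes tested, 16.7% were called lower and 24.7% higher (41.4% in all). The median log2 fold change of the members was −0.24, against −0.01 over all genes. LEU1 fell most and was the only member to fall at least 2-fold, as 0.584% of all genes did, and HIS5, the only member to rise at least 2-fold, as 8.08% of all genes did, rose most. The others that rose were GCN4, LYS1, LYS2, LYS20, LYS21, LEU4 and TRP4, and the 10 not called were HIS6, LYS14, ILV1, ILV6, TRP5, ARO2, ARO3, SER3, HOM6 and ASN2. The libraries did not overlap for 26 members that were lower in the mutant (23.2% of all genes) and 9 that were higher (27.2%; 50.4% either way).

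In MATa the calls of 8 genes depended on single libraries. SER1 dropped out on removal of any WT library or of library 2 or 3 of tup1 MATa (adjusted p up to 0.201), TYR1 on removal of library 2 or 3 of tup1 MATa or any WT MATa library (up to 0.137), LYS20 on removal of library 1 of tup1 MATa or any WT MATa library (up to 0.122), and LYS4 on removal of library 2 or 3 of tup1 MATa or library 1 or 2 of WT MATa (up to 0.127). LYS12 dropped out on removal of library 3 of tup1 MATa or library 1 or 2 of WT MATa (up to 0.0767), HIS2 on removal of library 3 of either group (up to 0.132), LYS2 on removal of library 2 of either group (up to 0.0613), and GCN4 on removal of library 2 or 3 of WT MATa (up to 0.0587). With library 1 of tup1 MATa left out, TRP5, ARO2 and HOM6 were called lower (adjusted p of 0.00327, 0.0459 and 0.0494). Upper-quartile scaling called 1114 of all genes higher and 1778 lower, against 1395 and 947 with TMM; of the members it called 5 higher and 28 lower. It added TRP5, ARO2, ARO3 and SER3 to the genes called lower (adjusted p of 0.0262, 0.00497, 0.037 and 0.0482), and DESeq2 left out SER1 and TYR1 (0.0536 and 0.0509).

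**Figure D1:**
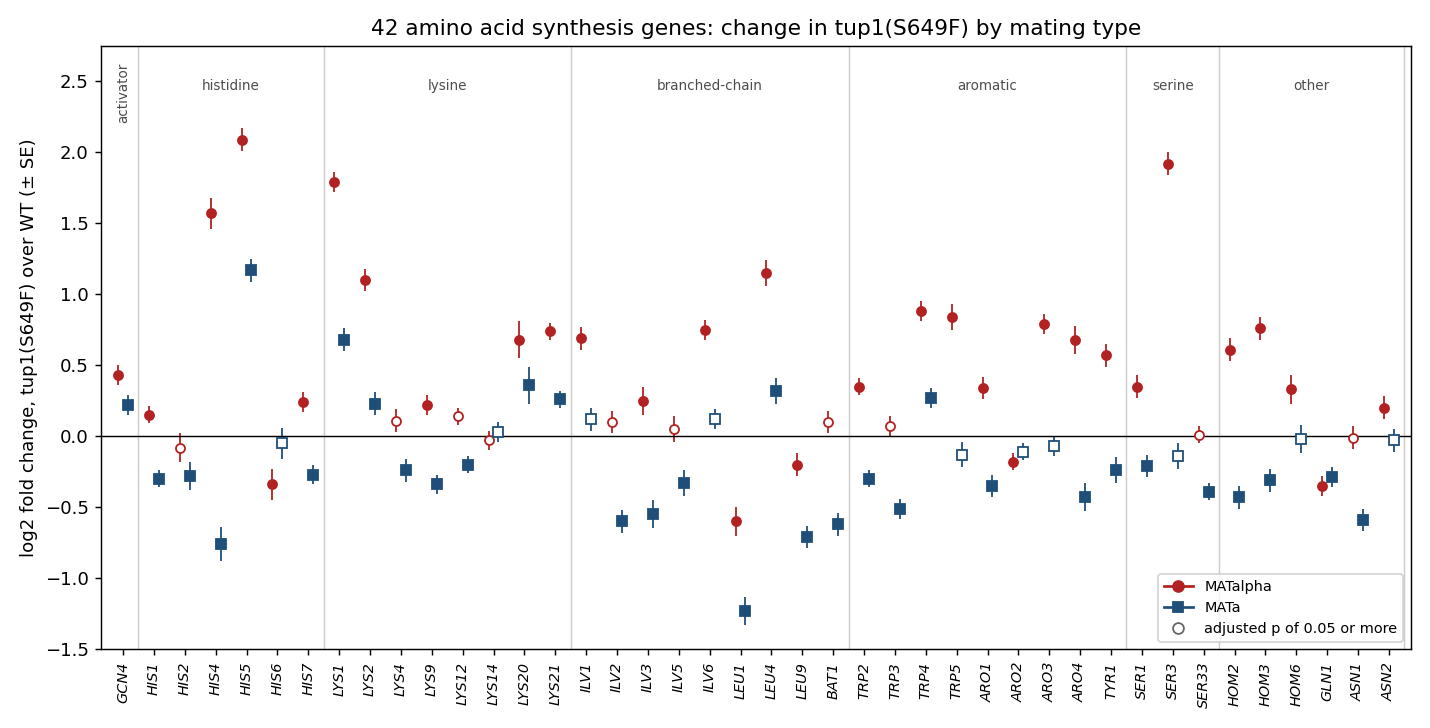
Log2 fold change of tup1(S649F) over WT for each of the 42 members, grouped by branch, in MATalpha (circles) and MATa (squares); bars are the standard error and open symbols had an adjusted p of 0.05 or more. The MATalpha symbol lies above the MATa symbol for 38 members, and 12 members were called higher in MATalpha and lower in MATa.

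The difference between these effects was itself tested, as the effect in MATalpha minus the effect in MATa. It was positive and called for 33 of 42 members, against 12.4% of all genes, and negative and called for 0 members, against 11.5% of all genes (23.9% in all); at an unadjusted p under 0.05 edgeR had 0 negative members too, and so had DESeq2. The median of the members was 0.58, against −0.03 over all genes. All 9 branched-chain genes, all 3 serine genes, 8 of 9 aromatic genes, 6 of 8 lysine genes, 4 of 6 histidine genes and 3 of the 6 others were among the 33. Those not called were GCN4, HIS2, HIS6, LYS14, LYS20, ARO2, HOM6, GLN1 and ASN2. Calls in opposite directions were made for 12 members (28.6%), which rose in MATalpha and fell in MATa: HIS1, HIS4, HIS7, LYS9, ILV3, TRP2, ARO1, ARO4, TYR1, SER1, HOM2 and HOM3. Over all genes tested 51 (0.902%) had this pattern. Leaving out 1 library gave 8 to 15 such members, 8 on removal of any WT MATa library and 15 on removal of library 1 of tup1 MATa. With that tup1 MATa library removed, 37 members were called in the difference, GCN4, LYS20, HOM6 and ASN2 among them (adjusted p of 0.0187, 0.000387, 0.000188 and 0.0225). LYS4 dropped out of the 33 on removal of library 1 of tup1 MATalpha, library 1 or 2 of WT MATalpha, library 2 or 3 of tup1 MATa or library 1 or 2 of WT MATa (adjusted p up to 0.0897), and ILV5 on removal of any library but library 1 of tup1 MATa (up to 0.0939). HIS6 was called lower once library 3 of tup1 MATalpha was removed (adjusted p = 0.0472), and HOM6 was called higher once library 1 of tup1 MATalpha was removed (adjusted p = 0.0463).

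**Figure D2:**
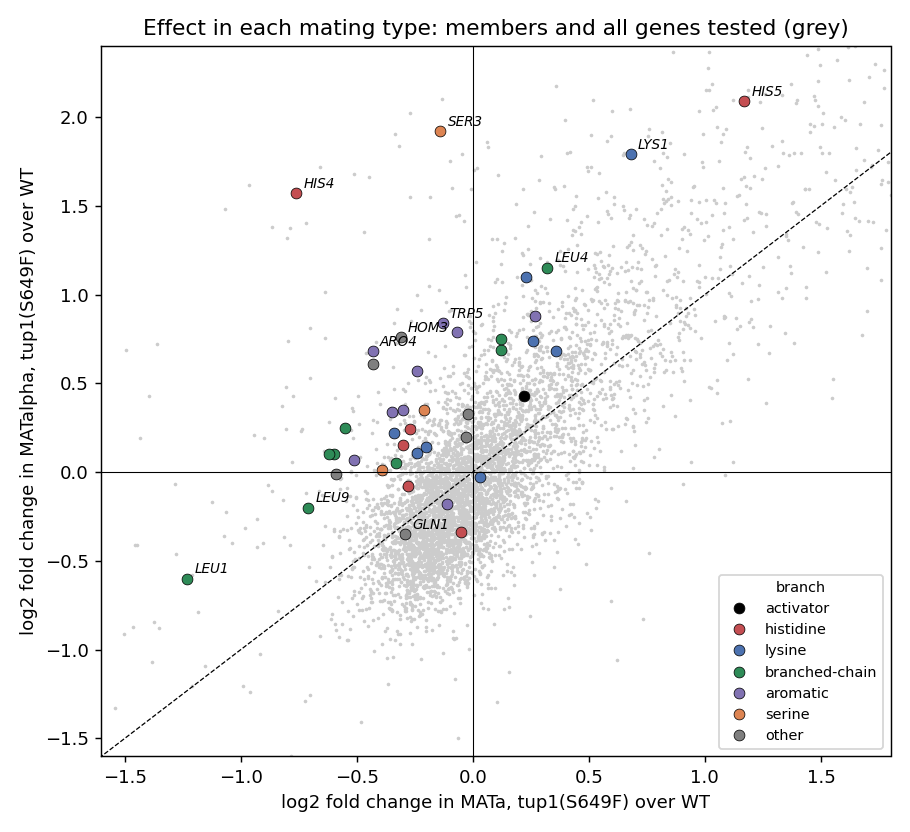
Log2 fold change of tup1(S649F) over WT in MATalpha (vertical axis) against that in MATa (horizontal axis) for the 42 members, coloured by branch, over all genes tested in grey; grey points beyond the axes are not drawn and the dashed line marks equal effects. The members lie mostly above the line, with HIS4 at 1.57 in MATalpha and −0.76 in MATa and SER3 at 1.92 and −0.14.

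GCN4 (YEL009C, chrV:138918-139763) encodes the activator itself. It stood at 1201, 1189 and 1090.0 CPM in tup1 MATalpha, against 841, 879.7 and 856 CPM in WT MATalpha (log2 fold change 0.43 ± 0.07 SE, adjusted p = 3.49e-05). In MATa it stood at 1019.9, 929 and 943 CPM in tup1 MATa, against 840.4, 821 and 828 CPM in WT MATa (log2 fold change 0.22 ± 0.07 SE, adjusted p = 0.0219). Its transcript was thus higher in the mutant of either mating type, with no overlap between the groups, also in MATa, where most other members fell. Upper-quartile scaling ended the MATa call (0.11, adjusted p = 0.17), as did a fit restricted to the 6 MATa libraries (0.22, adjusted p = 0.0564). The difference between the mating types did not pass the edgeR test (0.22, adjusted p = 0.128) but did pass in DESeq2 (0.24, adjusted p = 0.0372).

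Among regulators outside the 42, LEU3 was lower in both mating types of the mutant (−0.21, adjusted p = 0.0207 in MATalpha; −0.28, adjusted p = 0.0048 in MATa), the MATalpha call ending on removal of library 2 of tup1 MATalpha or library 1 or 2 of WT MATalpha (adjusted p up to 0.105) and with DESeq2 (−0.20, adjusted p = 0.0633). The sensor kinase gene GCN2 was higher in MATalpha (0.22, adjusted p = 0.0103) and lower in MATa (−0.19, adjusted p = 0.0393). The MATalpha call of GCN2 ended on removal of library 1 of tup1 MATalpha or library 3 of WT MATalpha (adjusted p up to 0.0722) and with upper-quartile scaling (0.08, adjusted p = 0.376). Its MATa call ended with the replicate block (−0.19, adjusted p = 0.0558) and on removal of library 1 or 2 of tup1 MATa, any WT MATa library, library 3 of tup1 MATalpha or library 1 of WT MATalpha (up to 0.137). Of 9 such regulators (LEU3, BAS1, PHO2, GCN1, GCN2, GCN20, GLN3, MKS1 and ASC1) 1 rose (11.1%) and 2 fell (22.2%) in MATalpha, where 32% of all genes rose and 31% fell. In MATa 0 of the 9 rose and 3 fell (33.3%), where 24.7% of all genes rose and 16.7% fell. GCN20, which acts with Gcn1 on Gcn2, was at −0.25, adjusted p = 0.00152 in MATa. It was lower in MATalpha too, at 140 ± 4.81 CPM in tup1 MATalpha and 160 ± 7.47 CPM in WT MATalpha (SD, n = 3 each).

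Histidine genes split widely in MATalpha, where 4 of 6 rose and 1 fell (median 0.20). HIS4 (YCL030C, chrIII:65934-68333), which encodes a multifunctional enzyme of the pathway, had the largest difference between the mating types of all members. It stood at 455, 353 and 349.9 CPM in tup1 MATalpha, against 132, 132 and 124 CPM in WT MATalpha (log2 fold change 1.57 ± 0.11 SE, adjusted p = 4.44e-09). In MATa it stood at 93.8, 64.6 and 78.9 CPM in tup1 MATa, against 139.9, 133 and 130.4 CPM in WT MATa (log2 fold change −0.76 ± 0.12 SE, adjusted p = 7.34e-05). The groups did not overlap in either mating type: the highest 3 of the 12 libraries were those of tup1 MATalpha and the lowest 3 those of tup1 MATa, and the effects differed by 2.33 (adjusted p = 6.59e-08). HIS5 (YIL116W, chrIX:142928-144085), the histidinol-phosphate aminotransferase, rose in both. Its levels were 237, 202 and 199 CPM in tup1 MATalpha, against 47.8, 48.1 and 54.3 CPM in WT MATalpha (log2 fold change 2.09 ± 0.08 SE, adjusted p = 2.21e-14). MATa cultures had 92.6, 87.0 and 98.3 CPM in tup1 MATa, against 42.1, 42.1 and 39.1 CPM in WT MATa (log2 fold change 1.17 ± 0.08 SE, adjusted p = 5.17e-10). All mutant libraries lay above all WT libraries of either mating type, and the rise was larger in MATalpha (difference 0.92, adjusted p = 1.24e-05).

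Smaller opposite calls were made for HIS1, whose product catalyses the entry step, and HIS7, a cyclase and amidotransferase. HIS1 had 319.8, 300.4 and 339 CPM in tup1 MATalpha, against 292, 289 and 280.4 CPM in WT MATalpha (log2 fold change 0.15 ± 0.06 SE, adjusted p = 0.0386). HIS1 in MATa had 246, 224 and 234 CPM in tup1 MATa, against 295, 285 and 289 CPM in WT MATa (log2 fold change −0.30 ± 0.06 SE, adjusted p = 0.00064). HIS1 thus rose and fell by small amounts, its tup1 MATalpha libraries being the highest of the 12. HIS7 had 110.0, 97.1 and 106 CPM in tup1 MATalpha, against 86.5, 84.4 and 93.5 CPM in WT MATalpha (log2 fold change 0.24 ± 0.07 SE, adjusted p = 0.00334). HIS7 in MATa had 75.0, 71.0 and 70.3 CPM in tup1 MATa, against 88.4, 84.8 and 88.2 CPM in WT MATa (log2 fold change −0.27 ± 0.07 SE, adjusted p = 0.00286). Neither gene's groups overlapped, but upper-quartile scaling ended the calls in MATalpha (0.01, adjusted p = 0.931 for HIS1; 0.09, adjusted p = 0.217 for HIS7). HIS6, the isomerase, went down in MATalpha (−0.34, adjusted p = 0.00875) and HIS2, the phosphatase, in MATa (−0.28, adjusted p = 0.0249). Summed over the 6 genes, the branch had 1178, 1011 and 1062 CPM in tup1 MATalpha, against 632, 621 and 619 CPM in WT MATalpha. The sums in MATa were 566, 506 and 538 CPM in tup1 MATa, against 632, 608 and 616 CPM in WT MATa. The lowest tup1 MATalpha sum was above each of the other 9.

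Lysine was the branch with the most genes called higher in both mating types. In MATalpha 5 of 8 rose and 0 fell (median 0.45), and in MATa 4 rose and 3 fell (median 0.13). LYS1 (YIR034C, chrIX:419615-420736), which makes lysine in the last step of the pathway, had 222, 187 and 180.0 CPM in tup1 MATalpha, against 54.7, 58.5 and 57.0 CPM in WT MATalpha (log2 fold change 1.79 ± 0.07 SE, adjusted p = 8.61e-14). The MATa libraries had 86.0, 82.7 and 85.9 CPM in tup1 MATa, against 52.8, 52.5 and 53.2 CPM in WT MATa (log2 fold change 0.68 ± 0.08 SE, adjusted p = 4.72e-07). LYS2, the alpha-aminoadipate reductase, had 951, 801 and 800.1 CPM in tup1 MATalpha, against 403, 386 and 404 CPM in WT MATalpha (log2 fold change 1.10 ± 0.08 SE, adjusted p = 2.31e-10). For both genes every tup1 MATalpha library was above every other library. LYS2 in MATa had 493, 475 and 444 CPM in tup1 MATa, against 410.3, 392 and 400.3 CPM in WT MATa (log2 fold change 0.23 ± 0.08 SE, adjusted p = 0.0198), a call that upper-quartile scaling ended (0.13, adjusted p = 0.155).

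LYS20 and LYS21 encode homocitrate synthases, which catalyse the committed step. Their coding sequences are 88.1% identical, with a longest shared run of 278 bases, so reads could be split between them in a way that the sources used here do not give. LYS20 had 121, 149.5 and 133 CPM in tup1 MATalpha, against 88.9, 82.6 and 80.0 CPM in WT MATalpha (log2 fold change 0.68 ± 0.13 SE, adjusted p = 0.000346). In MATa it had 155, 103 and 107 CPM in tup1 MATa, against 93.0, 96.5 and 95.8 CPM in WT MATa (log2 fold change 0.36 ± 0.13 SE, adjusted p = 0.0384), with replicate 1 of tup1 MATa far above replicates 2 and 3. Every mutant library of LYS20 was above the WT libraries of its mating type. LYS21 had 259, 238 and 242 CPM in tup1 MATalpha, against 149, 145 and 149 CPM in WT MATalpha (log2 fold change 0.74 ± 0.06 SE, adjusted p = 4.28e-09). LYS21 in MATa had 187, 186 and 164 CPM in tup1 MATa, against 151, 148 and 149 CPM in WT MATa (log2 fold change 0.26 ± 0.06 SE, adjusted p = 0.00241). Both thus rose in both mating types, though the MATa call of LYS20 rested on library 1 of tup1 MATa (adjusted p = 0.122 with it removed) and ended with upper-quartile scaling (0.25, adjusted p = 0.0939) and in a fit restricted to the 6 MATa libraries (adjusted p = 0.0507). LYS9, a saccharopine dehydrogenase of the step before last, took opposite directions. It had 185, 176 and 167 CPM in tup1 MATalpha, against 149, 151 and 152 CPM in WT MATalpha (log2 fold change 0.22 ± 0.07 SE, adjusted p = 0.00985). LYS9 in MATa had 139, 123 and 113 CPM in tup1 MATa, against 167, 151 and 157 CPM in WT MATa (log2 fold change −0.34 ± 0.07 SE, adjusted p = 0.000683); upper-quartile scaling ended the MATalpha call (0.07, adjusted p = 0.332). Homoaconitase LYS4 (−0.24, adjusted p = 0.0233) and the dehydrogenase LYS12 (−0.20, adjusted p = 0.0152) fell in MATa. LYS14, the activator of the branch, kept within 62.3 to 72.3 CPM in all 12 libraries and was called in no comparison with TMM scaling.

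Branched-chain genes fell more in MATa than any other branch by the median (−0.55; 6 of 9 fell and 1 rose) and were split in MATalpha (median 0.10; 4 rose and 2 fell). LEU1 (YGL009C, chrVII:476313-478652), the isopropylmalate isomerase, had 1695, 1254 and 1383 CPM in tup1 MATalpha, against 2193, 2181 and 2186 CPM in WT MATalpha (log2 fold change −0.60 ± 0.10 SE, adjusted p = 3.14e-05). Its MATa levels were 922, 817 and 805 CPM in tup1 MATa, against 2080.4, 1917 and 1987 CPM in WT MATa (log2 fold change −1.23 ± 0.10 SE, adjusted p = 3.9e-09). Mutant libraries lay below WT libraries in both mating types, and the fall was smaller in MATalpha (difference 0.64, adjusted p = 0.00261). LEU2, the next gene of the leucine pathway, which is not a member and carries the leu2-3,112 allele in all strains, fell likewise in both (−0.31, adjusted p = 0.00142 in MATalpha; −0.98, adjusted p = 3.76e-09 in MATa).

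LEU4 and LEU9 encode alpha-isopropylmalate synthases, the step that commits to leucine; their coding sequences are 76.8% identical with no shared run above 41 bases. LEU4 had 2005, 1953 and 1858 CPM in tup1 MATalpha, against 834, 878 and 908 CPM in WT MATalpha (log2 fold change 1.15 ± 0.09 SE, adjusted p = 2.65e-09). LEU4 in MATa had 1468, 1202 and 1101 CPM in tup1 MATa, against 1030.0, 968 and 1014 CPM in WT MATa (log2 fold change 0.32 ± 0.09 SE, adjusted p = 0.00872). Every mutant library of LEU4 was above every WT library. LEU9 had 356, 361 and 355 CPM in tup1 MATalpha, against 412, 408 and 409 CPM in WT MATalpha (log2 fold change −0.20 ± 0.08 SE, adjusted p = 0.0404). LEU9 in MATa had 322, 259.8 and 243 CPM in tup1 MATa, against 457, 446 and 446 CPM in WT MATa (log2 fold change −0.71 ± 0.08 SE, adjusted p = 5.55e-07). These copies were called in opposite directions within each mating type: LEU4 was higher and LEU9 lower in the mutant, with no overlap between groups for either gene, though DESeq2 (adjusted p = 0.0628) and RLE scaling (adjusted p = 0.0596) did not call LEU9 in MATalpha. A test of the difference between the copies was not made.

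The 4 members with the Leu3 motif, LEU1, BAT1 (mitochondrial branched-chain aminotransferase), ILV2 (catalytic subunit of acetolactate synthase) and ILV5 (acetohydroxyacid reductoisomerase), all fell in MATa, with log2 fold changes of −1.23, −0.62, −0.60 and −0.33, and none rose in MATalpha (−0.60, 0.10, 0.10 and 0.05, of which only LEU1 was called). Of the 5 branched-chain members without it, LEU4 rose and ILV3 and LEU9 fell in MATa, and all but LEU9 rose in MATalpha. BAT1 averaged 988 ± 123 CPM in tup1 MATalpha and 924 ± 15.1 CPM in WT MATalpha, and 523 ± 23.7 CPM in tup1 MATa and 804 ± 20.1 CPM in WT MATa (SD, n = 3 each). Threonine deaminase ILV1, the entry to isoleucine, rose in MATalpha (log2 fold change 0.69 ± 0.08 SE, adjusted p = 2.98e-07) and so did ILV6, the regulatory subunit of acetolactate synthase (log2 fold change 0.75 ± 0.07 SE, adjusted p = 4.58e-08), while in MATa neither was called (0.12 and 0.12, adjusted p = 0.243 and 0.209). ILV6 and ILV2 encode the subunits of a single enzyme, and ILV6 was at 0.75 where ILV2 was at 0.10 in MATalpha, and at 0.12 where ILV2 was at −0.60 in MATa. ILV3, the dihydroxyacid dehydratase shared by all branched-chain amino acids, had 1715, 1510.5 and 1588 CPM in tup1 MATalpha, against 1324, 1386 and 1347 CPM in WT MATalpha (log2 fold change 0.25 ± 0.10 SE, adjusted p = 0.042). Its levels in MATa were 1223, 943 and 869 CPM in tup1 MATa, against 1518, 1429 and 1486 CPM in WT MATa (log2 fold change −0.55 ± 0.10 SE, adjusted p = 0.000251). Upper-quartile scaling ended the MATalpha call of ILV3 (0.10, adjusted p = 0.367).

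Among the 6 branches the aromatic one had the largest share of genes that rose in MATalpha: 7 of 9 rose and 1 fell (median 0.57), whereas in MATa 5 fell and 1 rose (median −0.24). ARO3 and ARO4 encode the DAHP synthases of the entry step, inhibited by phenylalanine and by tyrosine. Their coding sequences are 63.4% identical with no shared run above 17 bases. ARO4 (YBR249C, chrII:716882-717994) had 845, 780.4 and 833 CPM in tup1 MATalpha, against 517, 507 and 516 CPM in WT MATalpha (log2 fold change 0.68 ± 0.10 SE, adjusted p = 1.7e-05). In MATa it had 540.2, 388 and 367 CPM in tup1 MATa, against 594, 576 and 578 CPM in WT MATa (log2 fold change −0.43 ± 0.10 SE, adjusted p = 0.0027), with replicate 1 of tup1 MATa nearest to WT. ARO4 did not overlap between groups in either mating type. ARO3 had 345, 291 and 290.1 CPM in tup1 MATalpha, against 179, 177 and 180.0 CPM in WT MATalpha (log2 fold change 0.79 ± 0.07 SE, adjusted p = 1.13e-08). ARO3 in MATa had 183, 169.9 and 160.2 CPM in tup1 MATa, against 183, 177 and 180.1 CPM in WT MATa (log2 fold change −0.07 ± 0.07 SE, adjusted p = 0.435). ARO3 in MATa thus overlapped between groups, and of the settings run only upper-quartile scaling called it lower (−0.18, adjusted p = 0.037).

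ARO1 encodes a single protein with 5 activities of the shikimate pathway. It had 1130.0, 1055 and 1020.5 CPM in tup1 MATalpha, against 827, 849 and 855 CPM in WT MATalpha (log2 fold change 0.34 ± 0.08 SE, adjusted p = 0.00129). ARO1 in MATa had 839, 699 and 677 CPM in tup1 MATa, against 938, 934 and 949 CPM in WT MATa (log2 fold change −0.35 ± 0.08 SE, adjusted p = 0.00204). ARO2, the chorismate synthase that follows, went the other way in MATalpha, where it fell (−0.18, adjusted p = 0.016), and was not called in MATa (−0.11, adjusted p = 0.179). TYR1, the prephenate dehydrogenase of tyrosine synthesis, had 81.3, 72.6 and 81.9 CPM in tup1 MATalpha, against 50.7, 50.3 and 58.3 CPM in WT MATalpha (log2 fold change 0.57 ± 0.08 SE, adjusted p = 7.52e-06). TYR1 in MATa had 48.6, 41.2 and 40.4 CPM in tup1 MATa, against 50.1, 50.9 and 52.8 CPM in WT MATa (log2 fold change −0.24 ± 0.09 SE, adjusted p = 0.0355). Both ARO1 and TYR1 had no overlap between groups in either mating type.

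Tryptophan genes rose in MATalpha except TRP3. TRP5, tryptophan synthase, had 963, 868 and 883 CPM in tup1 MATalpha, against 490.3, 496 and 529 CPM in WT MATalpha (log2 fold change 0.84 ± 0.09 SE, adjusted p = 2.01e-07). In MATa it had 617, 511 and 448 CPM in tup1 MATa, against 577, 562 and 590.3 CPM in WT MATa (log2 fold change −0.13 ± 0.09 SE, adjusted p = 0.26), and replicate 1 of tup1 MATa was above all WT MATa libraries while replicates 2 and 3 were below them. TRP4, the anthranilate phosphoribosyltransferase, rose in both, with 251, 253 and 246 CPM in tup1 MATalpha, against 136, 134 and 139 CPM in WT MATalpha (log2 fold change 0.88 ± 0.07 SE, adjusted p = 1.21e-09). TRP4 in MATa had 197, 167 and 160.2 CPM in tup1 MATa, against 145, 145 and 146 CPM in WT MATa (log2 fold change 0.27 ± 0.07 SE, adjusted p = 0.00368). TRP2 and TRP3 encode the subunits of anthranilate synthase, the first step. TRP2 had 198, 185 and 193 CPM in tup1 MATalpha, against 154, 145 and 152 CPM in WT MATalpha (log2 fold change 0.35 ± 0.06 SE, adjusted p = 3.66e-05). TRP2 in MATa had 129, 123 and 132 CPM in tup1 MATa, against 163, 161 and 151 CPM in WT MATa (log2 fold change −0.30 ± 0.06 SE, adjusted p = 0.000335). TRP3 fell in MATa (log2 fold change −0.51 ± 0.07 SE, adjusted p = 5.39e-06) and was not called in MATalpha (0.07, adjusted p = 0.365).

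Serine genes contained the member with the second largest difference between the mating types. SER3 and SER33 both encode phosphoglycerate dehydrogenase, the entry from glycolysis; their coding sequences are 82.4% identical with a longest shared run of 56 bases. SER3 (YER081W, chrV:322686-324095) had 183, 143 and 157 CPM in tup1 MATalpha, against 44.4, 39.7 and 43.2 CPM in WT MATalpha (log2 fold change 1.92 ± 0.08 SE, adjusted p = 1.68e-13). In MATa it had 33.8, 36.8 and 35.3 CPM in tup1 MATa, against 38.6, 38.9 and 38.7 CPM in WT MATa (log2 fold change −0.14 ± 0.09 SE, adjusted p = 0.262). The 3 tup1 MATalpha libraries stood far above the other 9, which stayed within 33.8 to 44.4 CPM, and the effects differed by 2.05 (adjusted p = 7.64e-10). SER33 had 133, 136 and 133 CPM in tup1 MATalpha, against 134, 129 and 138 CPM in WT MATalpha (log2 fold change 0.01 ± 0.06 SE, adjusted p = 0.936). Its levels in MATa were 114, 102 and 100.4 CPM in tup1 MATa, against 141, 142 and 132 CPM in WT MATa (log2 fold change −0.39 ± 0.06 SE, adjusted p = 5.05e-05). Per kilobase of coding sequence the order of these copies changed: SER3 was at 114 ± 14.3 and SER33 at 95.0 ± 1.30 CPM per kb in tup1 MATalpha, against 30.1 ± 1.75 and 94.6 ± 3.40 CPM per kb in WT MATalpha (SD, n = 3 each). SER1, the phosphoserine aminotransferase, had 150.5, 133 and 159.9 CPM in tup1 MATalpha, against 118, 111 and 119 CPM in WT MATalpha (log2 fold change 0.35 ± 0.08 SE, adjusted p = 0.000674). SER1 in MATa had 123, 98.1 and 107 CPM in tup1 MATa, against 126, 131 and 123 CPM in WT MATa (log2 fold change −0.21 ± 0.08 SE, adjusted p = 0.0409).

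**Figure D3:**
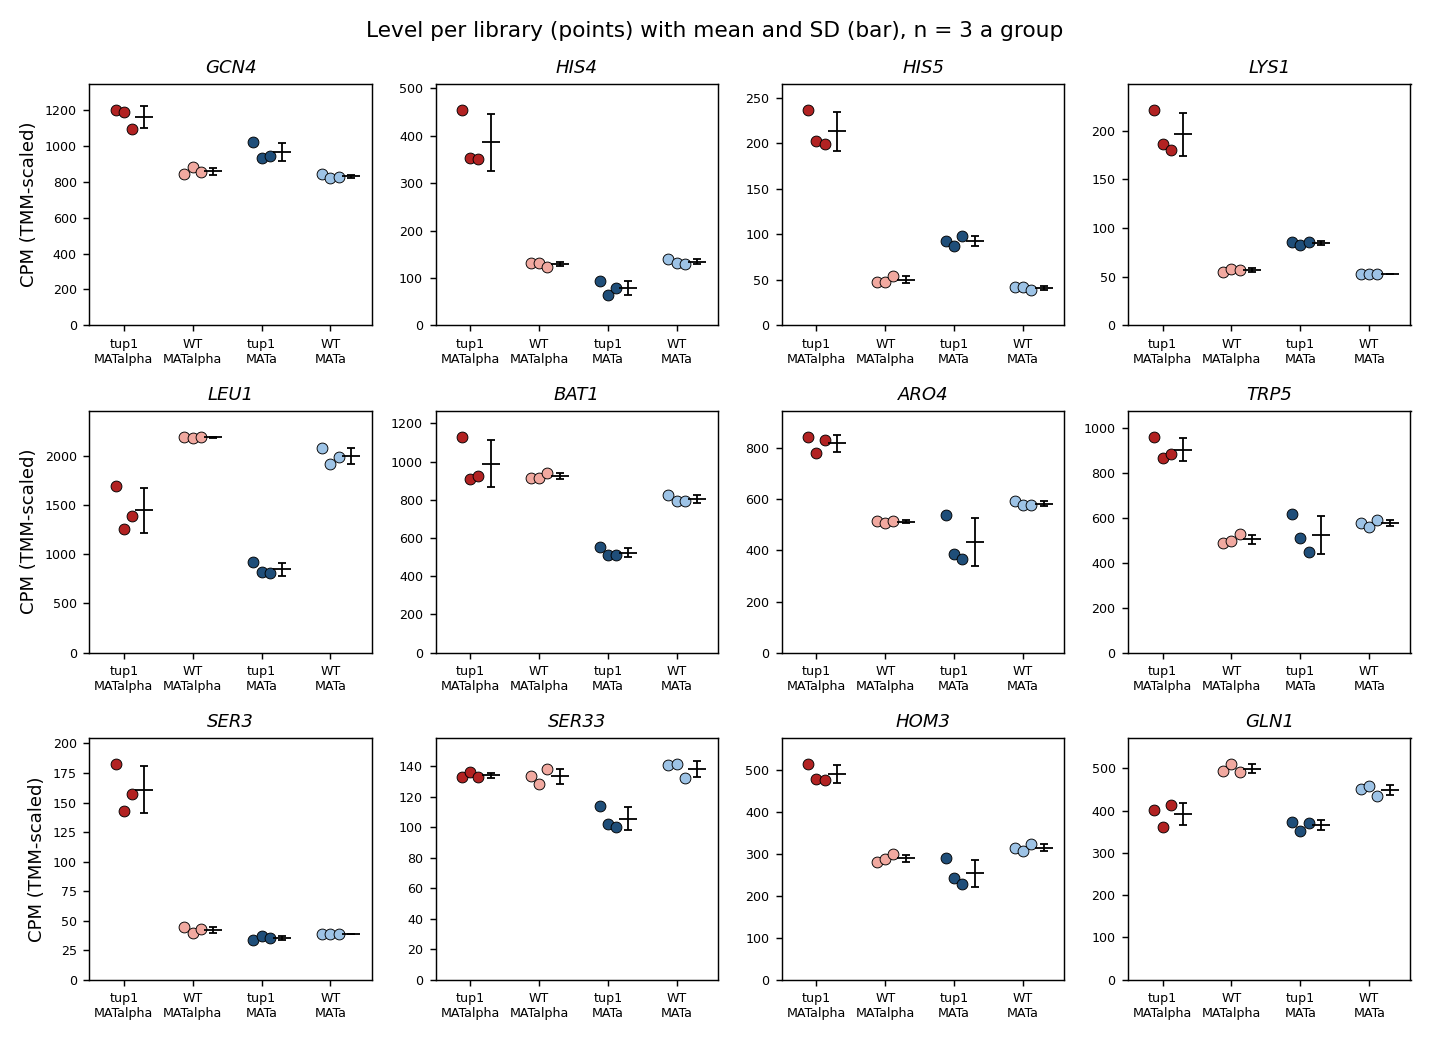
Level of 12 members in each of the 12 libraries (points, CPM after TMM scaling, axes from 0), with the mean and SD of each group beside them, for tup1 MATalpha, WT MATalpha, tup1 MATa and WT MATa from left to right. HIS4 is highest in tup1 MATalpha and lowest in tup1 MATa, SER3 is high in tup1 MATalpha and within 33.8 to 44.4 CPM in the other libraries, and LEU1 and GLN1 are lower in both mutant groups.

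Among the 6 other members, HOM2, HOM3 and HOM6 make homoserine from aspartate, the common precursor of threonine and methionine. HOM3, aspartate kinase, had 514, 477 and 476 CPM in tup1 MATalpha, against 281, 287 and 299 CPM in WT MATalpha (log2 fold change 0.76 ± 0.08 SE, adjusted p = 7.46e-08). HOM3 in MATa had 290.2, 242 and 227 CPM in tup1 MATa, against 314, 306 and 324 CPM in WT MATa (log2 fold change −0.31 ± 0.08 SE, adjusted p = 0.00332). For HOM3 every tup1 MATalpha library was above the other 9 libraries, and the tup1 MATa libraries were below those of WT MATa. HOM2, the semialdehyde dehydrogenase, had 1108, 1027 and 1051 CPM in tup1 MATalpha, against 667, 712 and 711 CPM in WT MATalpha (log2 fold change 0.61 ± 0.08 SE, adjusted p = 3.85e-06). HOM2 in MATa had 631, 523 and 491 CPM in tup1 MATa, against 749, 721 and 739 CPM in WT MATa (log2 fold change −0.43 ± 0.08 SE, adjusted p = 0.000429). For HOM2 the tup1 MATalpha libraries were likewise the highest and the tup1 MATa libraries the lowest of the 12, and the differences between the mating types were 1.07 for HOM3 and 1.03 for HOM2. HOM6, homoserine dehydrogenase, rose in MATalpha (0.33, adjusted p = 0.00598; 0.18, adjusted p = 0.0795 with upper-quartile scaling) and was not called in MATa (−0.02, adjusted p = 0.879).

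ASN1 and ASN2 encode asparagine synthetases with coding sequences 81% identical and a longest shared run of 83 bases. ASN1 had 1265, 1081 and 1185 CPM in tup1 MATalpha, against 1201, 1175 and 1183 CPM in WT MATalpha (log2 fold change −0.01 ± 0.08 SE, adjusted p = 0.908). ASN1 in MATa had 779, 687 and 676 CPM in tup1 MATa, against 1085, 1070.4 and 1063 CPM in WT MATa (log2 fold change −0.59 ± 0.08 SE, adjusted p = 5.47e-06). ASN1 thus overlapped between groups in MATalpha and not in MATa. ASN2 had 1187, 1283 and 1162 CPM in tup1 MATalpha, against 1007, 1091 and 1069.8 CPM in WT MATalpha (log2 fold change 0.20 ± 0.08 SE, adjusted p = 0.0294). ASN2 in MATa had 1147, 1057 and 1051 CPM in tup1 MATa, against 1069, 1095 and 1152 CPM in WT MATa (log2 fold change −0.03 ± 0.08 SE, adjusted p = 0.815); upper-quartile scaling ended the MATalpha call of ASN2 (0.05, adjusted p = 0.54). ASN1 therefore fell in MATa alone of these 4 tests, and ASN2 rose in MATalpha alone. GLN1, glutamine synthetase, averaged 392 ± 26.9 CPM in tup1 MATalpha and 499 ± 10.5 CPM in WT MATalpha, and 366 ± 11.2 CPM in tup1 MATa and 448 ± 11.5 CPM in WT MATa (SD, n = 3 each). It fell by 0.35 in MATalpha (adjusted p = 0.000152) and by 0.29 in MATa (adjusted p = 0.00142) on the log2 scale, amounts whose difference did not pass the test (−0.05, adjusted p = 0.716).

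**Figure D4:**
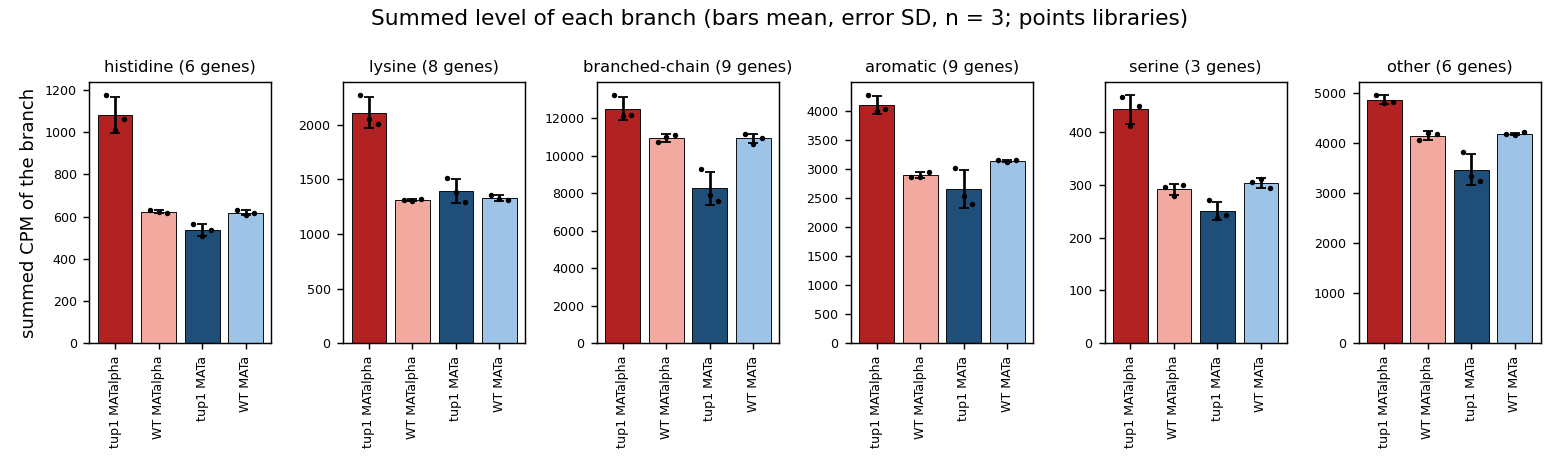
Summed CPM of the members of each branch in tup1 MATalpha, WT MATalpha, tup1 MATa and WT MATa from left to right; bars are means, error bars the SD over 3 libraries, points the libraries, and each axis starts at 0. In all 6 branches tup1 MATalpha has the highest mean, and in 5 of them, all but lysine, tup1 MATa has the lowest.

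Summed over all 42 genes, the members took 27601, 25586 and 25606 CPM in the tup1 MATalpha libraries, against 20698, 21166 and 21320.3 CPM in the WT MATalpha libraries. In MATa the sums were 19469, 16822 and 16246 CPM in tup1, against 21625, 20975 and 21346 CPM in WT. The groups did not overlap in either comparison, and replicate 1 was the highest of its group in both mutants. Per kilobase of coding sequence ILV5 was the most abundant member in all 4 groups, at 2469 ± 40.0 CPM per kb in tup1 MATalpha and 2386 ± 72.7 in WT MATalpha, and 1885 ± 202 in tup1 MATa and 2361 ± 44.2 in WT MATa (SD, n = 3 each). GCN4 was second in each group. LYS14 was the lowest in tup1 MATalpha, at 28.3 ± 2.06 CPM per kb, and in WT MATalpha and WT MATa, and SER3 was the lowest in tup1 MATa, at 25.0 ± 1.07 CPM per kb.

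Members with and without TGACTC gave the following counts. With the core, 18 of 29 rose and 4 fell in MATalpha (median 0.25), and 5 rose and 19 fell in MATa (median −0.30). Without it, 9 of 13 rose and 1 fell in MATalpha (median 0.43), and 3 rose and 5 fell in MATa (median −0.13). The difference between the mating types was called higher for 25 of 29 members with the core and 8 of 13 without it. Over all genes with a full window, 39.6% rose and 25.1% fell in MATalpha among the 717 with the core, and 31.3% and 32.4% among the 4811 without it. In MATa 26.2% rose and 18.4% fell with the core, and 24.8% and 16.9% without it. Over the same genes, that difference was called higher for 20.8% of 717 with the core and 11.3% of 4811 without it. These splits were not tested.

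WT MATalpha was also set against WT MATa without the mutation. By edgeR 0 members were called higher and 0 lower in WT MATalpha against WT MATa. Over all genes tested 0.902% were called (0.531% higher and 0.371% lower). At an unadjusted p under 0.05 edgeR had 3 members higher and 2 lower, and the share of all genes at that threshold was not counted. DESeq2 called 0 members at an adjusted p under 0.05. Log2 fold changes ran from −0.26 for HOM6 to 0.28 for HIS5, with a median of −0.02. Fitted without the mutants, the 6 WT libraries gave 5 members higher and 10 lower, with HOM6 at −0.26 (adjusted p = 1.32e-06). The share of all genes called in that fit was not counted, so these counts cannot be read as particular to the members. The libraries did not overlap for 11 members that were higher in WT MATalpha (17% of all genes) and 13 that were lower (17.2%; 34.2% either way). With library 1 of tup1 MATa out of the fit, HIS5 was called higher and HOM6, LEU4 and ARO4 lower (adjusted p of 0.0462, 0.0101, 0.0324 and 0.035).

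In the mutant the mating types differed. In tup1 MATalpha against tup1 MATa 34 members were higher and 0 lower, where 17.8% of all genes were called higher and 17.2% lower (35% in all); at an unadjusted p under 0.05 edgeR had 0 lower members, and so had DESeq2. The median was 0.52, against −0.02 over all genes. HIS4 (log2 fold change 2.28 ± 0.12 SE, adjusted p = 4.92e-10) and SER3 (log2 fold change 2.19 ± 0.09 SE, adjusted p = 3.49e-13) differed most, and HIS5 and LYS1 followed at 1.20 each. The 35 members whose libraries did not overlap were all higher in tup1 MATalpha and 0 were lower, where 20.6% of all genes were higher and 19.7% lower without overlap (40.3% either way). HIS2, HIS6, LYS14, LYS20, ARO2, HOM6, GLN1 and ASN2 were not called. With library 1 of tup1 MATa removed, LYS20, HOM6 and ASN2 were called higher too (adjusted p of 0.00082, 0.00716 and 0.0205), and in a fit of the 6 mutant libraries alone GCN4 was not (adjusted p = 0.0801). This comparison shares its libraries with those of tup1 against WT, so it repeats their values from the other side.

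Other genes of amino acid synthesis were followed beside the 42. Of 22 further steps, 8 rose (36.4%) and 4 fell (18.2%) in MATalpha (median 0.08), near the 32% of all genes that rose and below the 31% that fell. In MATa 3 rose (13.6%) and 7 fell (31.8%; median −0.07), where 24.7% and 16.7% of all genes did. The difference between the mating types was higher for 8 (36.4%) and lower for 2 (9.09%), where 12.4% and 11.5% of all genes were. ARO8, an aromatic aminotransferase, rose in MATalpha (0.88, adjusted p = 3.16e-08) and was not called in MATa (−0.01, adjusted p = 0.941), and GDH1, the main glutamate dehydrogenase of synthesis, rose in MATalpha (0.27, adjusted p = 0.0208) and fell in MATa (−0.49, adjusted p = 0.000498); its MATalpha call ended on removal of library 3 of tup1 MATalpha or library 1 or 3 of WT MATalpha (adjusted p up to 0.0658) and with upper-quartile scaling (0.12, adjusted p = 0.231). GDH3, its paralog, rose in both (1.96 in MATalpha and 1.67 in MATa), as did the serine hydroxymethyltransferase SHM2 (1.39 and 0.75). The cytosolic aminotransferase BAT2 fell in MATalpha (−0.59, adjusted p = 1.69e-07) and was not called in MATa (−0.10, adjusted p = 0.241; −0.20, adjusted p = 0.00995 with upper-quartile scaling), while its mitochondrial counterpart BAT1 fell in MATa and was not called in MATalpha. PRO1 and PRO2 of proline synthesis fell in both (−0.46 and −0.38 in MATalpha; −0.38 and −0.33 in MATa). The marker gene HIS3, mutated in all strains, rose in MATalpha (1.05, adjusted p = 3.99e-06) and was not called in MATa (0.21, adjusted p = 0.279); TRP1 was not called in MATalpha (0.23, adjusted p = 0.239) and rose in MATa (0.48, adjusted p = 0.0294), a call that ended on removal of library 1 of tup1 MATa or library 1 or 3 of WT MATa (adjusted p up to 0.153), with upper-quartile scaling (0.37, adjusted p = 0.0712), with only the 6 MATa libraries (0.48, adjusted p = 0.0624) and with DESeq2 (0.47, adjusted p = 0.0602).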

How the data were processed

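The authors deposited raw read counts per gene in 1 table of 6219 genes and 12 libraries. The submitters' processing notes name featureCounts 1.6.3, STAR 2.7.3 and cutadapt 2.8, and the builds sacCer3 and R64. How strand and multiply mapped reads were treated in counting is not given there, so near-identical copies may share reads. Per the labels' protocols, libraries came from total RNA depleted of ribosomal RNA with a stranded kit. Of the identifiers, 5841 matched the R64 gene table of RefSeq by locus tag or unambiguous name, all members among them; coordinates and lengths are R64, and lengths are coding lengths.

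With edgeR 4.0.16 in R 4.3.3, genes were filtered by filterByExpr at its minimum count of 10, libraries scaled by TMM, and 5654 genes fitted with 4 group means (robust, 8 residual degrees of freedom). There were 5 two-sided contrasts, adjusted by Benjamini-Hochberg. DESeq2 1.42.0 was an alternative, with other scalings, no filter, the compared libraries alone, a replicate block and each library left out. The script was tested on simulated data. Members and lists were chosen with earlier results of these data known. Values in every library are given for GCN4, the 2 members of each branch with the largest called change, those called in opposite directions, and paralog pairs. Precision is limited by 3 libraries a group.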

Additional observations from a re-analysis of the deposited data

Results flagged for a closer look

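The effect of tup1(S649F) differed between MATalpha and MATa, by the edgeR test of the difference itself, for 33 members. The differences below are the log2 fold change in MATalpha minus that in MATa. In the histidine branch HIS4 differed by 2.33, HIS5 by 0.92, HIS7 by 0.52 and HIS1 by 0.46. Lysine genes gave 1.11 for LYS1, 0.86 for LYS2, 0.56 for LYS9, 0.48 for LYS21, 0.35 for LYS4 and 0.34 for LYS12. Branched-chain genes gave 0.83 for LEU4, 0.79 for ILV3, 0.72 for BAT1, 0.71 for ILV2, 0.64 for LEU1, 0.63 for ILV6, 0.58 for ILV1, 0.51 for LEU9 and 0.37 for ILV5. Among aromatic genes it was 1.11 for ARO4, 0.97 for TRP5, 0.86 for ARO3, 0.80 for TYR1, 0.69 for ARO1, 0.65 for TRP2, 0.61 for TRP4 and 0.58 for TRP3. SER3 differed by 2.05, SER1 by 0.56 and SER33 by 0.39, and HOM3 differed by 1.07, HOM2 by 1.03 and ASN1 by 0.58.

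Outside the 42, the marker genes HIS3 and LEU2 differed by 0.84 and 0.67 and the kinase gene GCN2 by 0.42. Of the other synthesis steps ARO8 (0.89), GDH1 (0.76), SHM2 (0.64), AAT2 (0.59), GLT1 (0.57), GLY1 (0.45), GDH2 (0.35) and SHM1 (0.33) were more positive in MATalpha, and BAT2 (−0.49) and ALT1 (−0.55) more negative. The SHM1 difference was not called on removal of any 1 of 10 of the 12 libraries (adjusted p up to 0.105), with the replicate block (0.33, adjusted p = 0.0563) or with upper-quartile scaling (0.28, adjusted p = 0.0505). The GDH2 difference was not called on removal of library 2 of tup1 MATalpha, library 1 of WT MATalpha, or library 2 of tup1 MATa or of WT MATa (adjusted p up to 0.0873).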

How the results depend on the processing

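Upper-quartile scaling moved the median of all genes to −0.18 in MATalpha and −0.12 in MATa, against −0.03 and −0.01 with TMM. With it 8 members were lower in MATalpha (median of members 0.19) and 5 were higher in MATa (median −0.34), and SER33 in MATalpha, not called at 0.01, was called lower at −0.14. Leaving out 1 library gave 24 to 28 higher and 2 to 5 lower members in MATalpha, fewest lower without tup1 MATalpha replicate 1 (2) and WT MATalpha replicate 3 (3), and 5 to 8 higher and 19 to 27 lower members in MATa, fewest higher without WT MATa replicate 2. The difference between the mating types was higher for 31 to 37 members and lower for 0 to 1, with a median of 0.54 to 0.65. MATalpha against MATa gave 0 to 1 higher and 0 to 3 lower members in WT, and 34 to 37 higher and 0 lower in tup1. A fit of only the WT libraries gave 5 higher and 10 lower members between mating types, with no share of all genes counted beside them. The cause was not tested. In every setting run, 31 of the 33 calls in the difference remained, as did 23 of 32 in MATalpha and 24 of 32 in MATa.

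Libraries share only a replicate number across strains: correlations of their deviations from the group means ran from −0.29 to 0.12. With the replicate block 27 members were higher and 5 lower in MATalpha, 8 higher and 24 lower in MATa, and 32 higher in the difference, ILV5 having an adjusted p of 0.0577.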

Other observations

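Among all genes tested, the Leu3 motif stood in the 500 bases before 16. Of these 8 were lower and 3 higher in tup1 MATalpha, and 11 were lower and 1 higher in tup1 MATa. Over all genes 31% were lower and 32% higher in MATalpha, and 16.7% lower and 24.7% higher in MATa. The 16 hold the 4 members described above. Of the 12 that are not members, 7 were lower and 3 higher in tup1 MATalpha, and 7 lower and 1 higher in tup1 MATa. The 16 include LEU1, BAT1, ILV2, ILV5, LEU2 and GDH1, whose values are given with the pathway. DRE2, which encodes a protein of cytosolic iron-sulphur assembly, fell in both (−0.53, adjusted p = 3.07e-07 in MATalpha; −0.71, adjusted p = 9.35e-09 in MATa). DRE2, BAP2 and ATP5 were picked for mention after their values were seen. BAP2, a branched-chain amino acid permease, rose in MATalpha (0.26, adjusted p = 0.00467) and was not called in MATa (0.01, adjusted p = 0.942), and the ATP synthase subunit gene ATP5 rose in both (0.62 and 0.20). Upper-quartile scaling ended the MATalpha call of BAP2 (0.11, adjusted p = 0.152) and the MATa call of ATP5 (0.09, adjusted p = 0.229), and that of ATP5 also ended on removal of library 1 of tup1 MATa or library 1 or 2 of WT MATa (adjusted p up to 0.102).

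SRG1 is a transcript annotated on the same strand across the SER3 promoter, with 77 bases of overlap with SER3. It had 0 to 2 counts in each of the 12 libraries, so its level could not be compared between groups. Whether so few counts reflect its level or the way reads were counted was not tested.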
